A study of Mus musculus with 4 samples.

Results

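The genes described here are 50 components of DNA replication and mitosis, chosen by symbol from the 24421 gene symbols of the count files. All 50 were found, and all 50 had a mean normalized count of at least 5 over the libraries, as did 16472 of the 19891 genes with a count. By known function, and not by these data, 28 of them were placed at the G1 to S transition (G1/S: origin licensing, helicase activation, fork enzymes, nucleotide supply, E2F factors and Cdc25a) and 22 at G2 and mitosis (G2/M: cyclins, kinases, motors, checkpoint and chromosome proteins). The counts came from R1 mouse embryonic stem cells (ESCs), a culture line from the inner cell mass, sequenced as Illumina TruSeq RNA libraries in 2 states with 2 libraries each.

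The Undiff libraries were named as the cells before differentiation: the study's methods describe ESCs kept in growth medium with LIF, the cytokine that holds ESCs in the pluripotent state, while the labels call them embryoid bodies (floating aggregates of ESCs). The Day4 libraries were from embryoid bodies formed over 4 days without LIF, to which retinoic acid (RA) was then added for 4 further days. RA, made from vitamin A, drives ESCs towards differentiated fates. The dose of RA was 2 µM by the study's methods and design text, and the treatment label has 2 mM. LIF withdrawal, RA and days in culture changed together, as did aggregation if the Undiff cells were not aggregated, so their shares in any difference cannot be told apart. By the study's methods, the 2 libraries of a state are biological replicates from separate cultures.

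Cells copy their genome once per division in ordered steps. In G1, the origin recognition complex, Cdc6 and Cdt1 load the Mcm2-7 ring, the core of the replicative helicase, onto origins, and at the start of S phase Cdc45 and the GINS complex turn that ring into a moving helicase. Most genes of this machinery are transcribed by E2F factors, whereas the genes of mitosis are transcribed later, in G2, through CCAAT boxes and CHR elements. Mouse ESCs are known for fast divisions with a very short G1 phase and many cells in S phase, and a cell population that leaves this state usually lengthens G1.

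The libraries held 36674893 and 32099074 counts on genes in Undiff and 34956489 and 47730944 in Day4. A gene was called a differentially expressed gene (DEG) at an adjusted p of at most 0.05 (edgeR quasi-likelihood test, Benjamini-Hochberg over 19891 genes), a change of 2-fold or more either way, and a mean of 5 or more normalized counts over the libraries. The labelled states were checked with marker genes. All 8 pluripotency markers, Pou5f1 and Nanog among them, were DEGs lower in Day4, and their summed level fell from 3409 to 3524 CPM in Undiff to 23.5 to 29.0 CPM in Day4, where CPM is a count scaled to a common library total. Summed endoderm markers were at 31.0 to 33.2 CPM in Undiff and 642 to 650 in Day4, mesenchyme and fibroblast markers at 70.0 to 76.7 and 1739 to 1891, blood and endothelium markers at 146 to 149 and 351 to 367, and muscle markers at 87.8 to 89.0 and 154 to 193. As DEGs, 8 of 8 endoderm, 7 of 8 mesenchyme, 5 of 8 blood and endothelium and 4 of 8 muscle markers were higher in Day4, and 1 of each of the last 3 lists was lower (Thy1, Pecam1 and Myh6, at log2 fold changes of -3.81, -1.19 and -5.56). Neural markers summed to 152 to 155 CPM in Undiff and 151 to 165 in Day4, with 3 of 8 DEGs higher and 4 lower. The 5 blood and endothelium markers that rose were Tal1, Kdr, Cdh5 and the globin genes Hbb-y and Hba-x. Mean normalized counts of Hbb-y were 1.56 in Undiff and 1762 in Day4, and those of Hba-x 0.52 and 1646. The white blood cell marker Ptprc had 2 and 5 counts in Undiff and none in Day4. Reads that matched no annotated exon made up 12.1% and 13.2% of the Undiff tallies and 7.50% and 7.74% of the Day4 tallies. Such reads can lie in introns as well as between genes. The part of these shifts in the results below was not tested. In bulk RNA, fewer cells in S phase or mitosis and less RNA of a gene per such cell cannot be told apart.

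Replication and mitosis genes were lower in Day4 nearly throughout. Their share of all counts was 1.20% and 1.18% in Undiff and 0.638% and 0.663% in Day4. Of the 50, 47 were lower in Day4 at an adjusted p of at most 0.05, without a minimum fold, 1 was higher, the transcription factor Foxm1, and 2 did not pass, the GINS subunit Gins2 and the thymidylate synthase Tyms. Over all genes tested, 35.5% were lower and 36.9% higher by the same rule. With the minimum change of 2-fold, 19 of the 50 were DEGs lower in Day4 and none rose that far, the largest gain being 0.22 on the log2 scale for Foxm1. Of all genes tested, 20.6% were DEGs lower in Day4 and 22.2% DEGs higher.

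The members are strongly expressed, from a mean normalized count of 690 for E2f2 to 41227 for Top2a, and strongly expressed genes pass a test at smaller changes. Among the 8518 genes at least as high as the lowest member, 43.4% were lower at an adjusted p of at most 0.05 and 16.1% were DEGs lower in Day4. The members' median log2 fold change, Day4 over Undiff, was -0.78, beside 0.03 over all 16472 expressed genes. It was -0.74 over the 28 G1/S genes, 9 of them DEGs, and -0.96 over the 22 G2/M genes, 10 of them DEGs. The typical change was thus below 2-fold, and 28 members were lower with changes between -0.98 and -0.15.

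**Figure D1:**
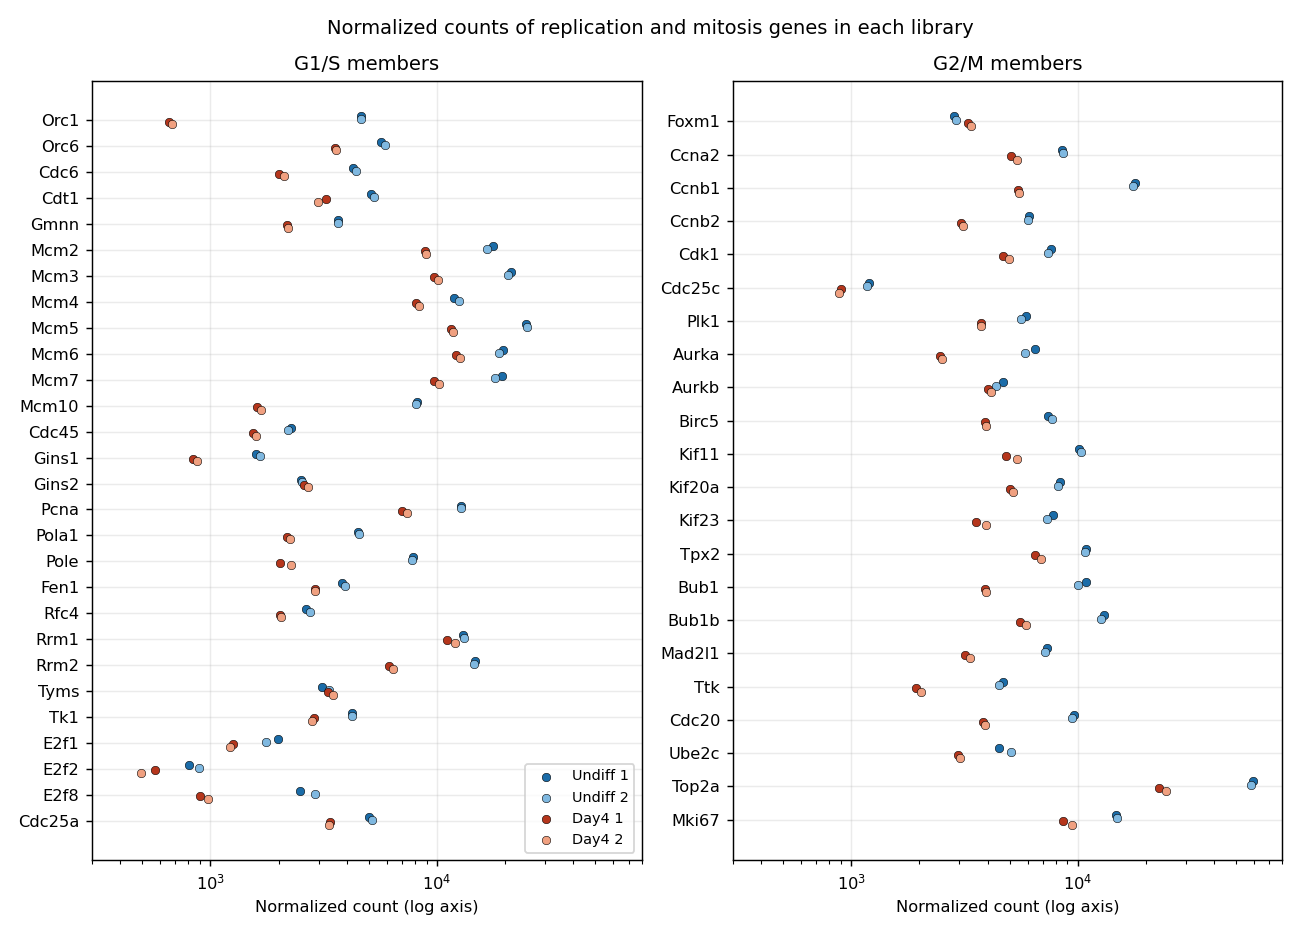
Normalized count of each of the 50 genes in each of the 4 libraries (log axis), in the order of their roles; blue points are the 2 Undiff and red points the 2 Day4 libraries. In 49 of 50 genes the 2 states did not overlap, 47 of them lower in Day4, and the exception was Tyms.

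The libraries of a state lay close together. The standard deviation (SD) of the 2 libraries was a median of 2.31% of their mean over the 50 genes and both states, and at most 10.6%, for E2f2 in Day4. The values of the 2 states did not overlap in 49 of the 50 genes, and 47 of these were lower in Day4; among all expressed genes, 45.8% were lower without overlap. With 2 libraries per state, an exact two-sided permutation test of a single gene cannot go below p = 0.333. The common biological coefficient of variation, estimated over all genes together, was 3.66%. In the fit over all genes the spread was set by values shared between genes. A gene's own spread did not enter, which makes the adjusted p values of high genes very small. They are therefore given below only for genes near the limit. A fit limited to the 15893 genes that passed a filter on low counts, where each gene's own spread had weight, called the same 47 members lower and 20 as DEGs.

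The 2-fold limit ran through the middle of the set. Within 0.1 of a log2 fold change of -1 lay 11 members, of which 6 were DEGs. Of the 19 DEGs, 16 passed in every one of 11 fits, and of the 47 lower genes, 45 did. The 3 DEGs lost in some fits were Pola1, Kif11 and Kif23. With scaling to library totals, in place of the trimmed mean of M-values, they changed by -0.96, -0.94 and -0.94.

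**Figure D2:**
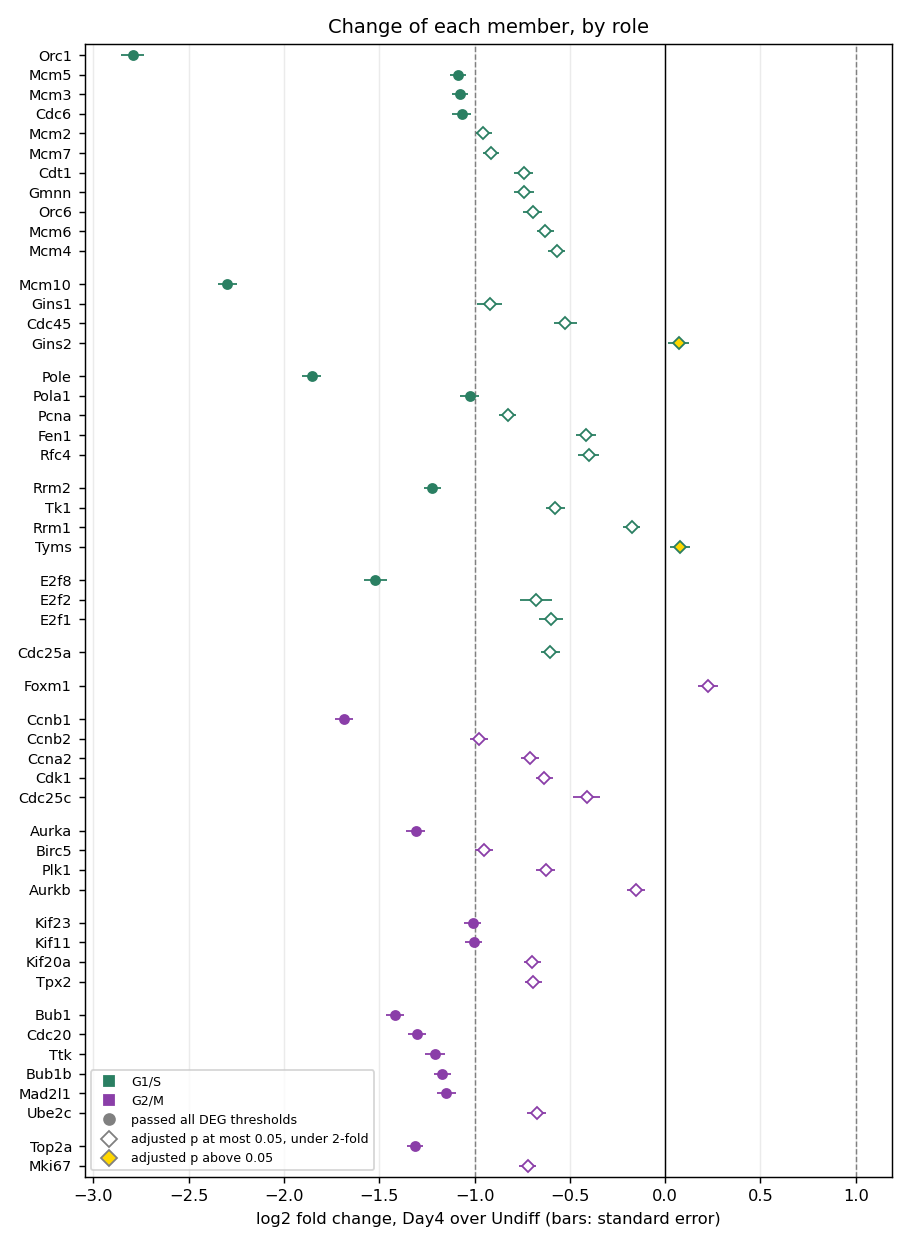
Log2 fold change of each gene, Day4 over Undiff, with its standard error, grouped by role; dashed lines mark 2-fold. Filled circles are the 19 DEGs, open diamonds passed the adjusted p alone, and the 2 yellow diamonds, Gins2 and Tyms, did not pass.

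Promoter sequences were set beside these changes because the members moved together and their promoters share known elements. RefSeq promoters (GRCm38.p6, 250 bases before to 50 after the transcription start) were matched for 39 of the 50 genes, 42 promoters in all. The letters CCAAT or ATTGG, the CCAAT box on either strand, stood in 76.2% of the members' promoters and in 37.4% of all 32851. The letters TTTGAA or TTCAAA, the core of the CHR element, stood in 75% of 16 G2/M promoters, in 19.2% of 26 G1/S promoters and in 17.9% of all. The E2F letters TTTGGCGC, TTTCCCGC, TTTCGCGC and TTTGCCGC, or their reverse complements, stood in 38.5% of the G1/S promoters, in 6.25% of the G2/M promoters and in 2.26% of all. A match is a description of the letters in this window and not a bound site.

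The 7 promoters below are those of the 3 genes of each phase with the lowest log2 fold change among genes with 1 promoter and with that phase's letters, and of Tyms, which did not pass the test. Capitals mark the CCAAT, CHR and E2F letters. In Mcm5 a pair of E2F matches on opposite strands overlaps in the run TTTCGCGCCAAA, and overlapping matches were counted separately.
Orc1, chr4:108579204-108579503, plus strand: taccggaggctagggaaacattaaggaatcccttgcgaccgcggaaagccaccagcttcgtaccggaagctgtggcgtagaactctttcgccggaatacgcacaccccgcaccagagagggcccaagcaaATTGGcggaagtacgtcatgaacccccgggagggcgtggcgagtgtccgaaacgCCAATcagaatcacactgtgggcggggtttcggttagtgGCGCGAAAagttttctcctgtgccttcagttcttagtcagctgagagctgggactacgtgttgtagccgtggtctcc
Mcm5, chr8:75109259-75109558, plus strand: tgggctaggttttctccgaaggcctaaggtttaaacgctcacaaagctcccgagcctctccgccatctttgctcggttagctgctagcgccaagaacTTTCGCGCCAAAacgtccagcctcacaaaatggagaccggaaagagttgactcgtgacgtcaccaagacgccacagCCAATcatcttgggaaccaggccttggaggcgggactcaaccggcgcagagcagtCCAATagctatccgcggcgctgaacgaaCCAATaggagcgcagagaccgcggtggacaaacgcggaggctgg
Mcm3, chr1:20820263-20820562, minus strand: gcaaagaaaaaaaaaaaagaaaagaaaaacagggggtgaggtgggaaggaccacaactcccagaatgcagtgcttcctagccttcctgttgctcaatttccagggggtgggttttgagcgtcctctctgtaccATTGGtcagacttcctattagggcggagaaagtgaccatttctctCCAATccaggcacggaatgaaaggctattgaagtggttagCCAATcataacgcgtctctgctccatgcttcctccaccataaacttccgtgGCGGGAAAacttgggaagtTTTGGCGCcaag
Top2a, chr11:99024140-99024439, minus strand: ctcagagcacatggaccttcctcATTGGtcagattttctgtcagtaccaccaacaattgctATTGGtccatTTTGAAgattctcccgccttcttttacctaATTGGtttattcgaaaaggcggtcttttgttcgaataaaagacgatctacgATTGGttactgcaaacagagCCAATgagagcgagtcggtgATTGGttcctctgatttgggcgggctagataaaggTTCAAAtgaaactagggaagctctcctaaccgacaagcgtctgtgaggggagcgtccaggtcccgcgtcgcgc
Aurka, chr2:172370521-172370820, minus strand: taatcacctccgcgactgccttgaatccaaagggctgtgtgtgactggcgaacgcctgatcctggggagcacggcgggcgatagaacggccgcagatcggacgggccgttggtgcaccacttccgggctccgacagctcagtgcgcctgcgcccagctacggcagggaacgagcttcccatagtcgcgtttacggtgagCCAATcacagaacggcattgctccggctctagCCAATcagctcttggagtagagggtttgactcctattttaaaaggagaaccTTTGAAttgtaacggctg
Cdc20, chr4:118437294-118437593, minus strand: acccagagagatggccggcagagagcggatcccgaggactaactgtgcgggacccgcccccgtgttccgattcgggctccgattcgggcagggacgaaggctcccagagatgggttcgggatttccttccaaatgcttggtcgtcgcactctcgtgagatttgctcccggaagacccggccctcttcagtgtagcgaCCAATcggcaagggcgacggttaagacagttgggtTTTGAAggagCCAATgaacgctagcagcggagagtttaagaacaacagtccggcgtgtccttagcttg
Tyms, chr5:30073576-30073875, minus strand: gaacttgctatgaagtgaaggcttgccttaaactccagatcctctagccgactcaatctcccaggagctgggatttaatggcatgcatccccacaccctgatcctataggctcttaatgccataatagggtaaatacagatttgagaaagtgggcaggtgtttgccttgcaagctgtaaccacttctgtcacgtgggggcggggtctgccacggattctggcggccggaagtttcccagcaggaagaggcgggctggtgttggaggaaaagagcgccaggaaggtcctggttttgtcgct

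Orc1 held 2 CCAAT matches and 1 E2F match, the latter at base -27 from the start, and Mcm5 and Mcm3 each held 3 CCAAT and 2 E2F matches. Top2a held 6 CCAAT and 2 CHR matches. Aurka and Cdc20 each held 2 CCAAT matches and 1 CHR match. The Tyms window held none of these letters. Nor did the windows of Mad2l1, Birc5, E2f1, Tk1 and Rfc4, which were lower, at -1.15, -0.95, -0.60, -0.58 and -0.40. The E2f1 window (chr2:154569377-154569676) lay wholly inside the annotated gene (chr2:154559407-154569892, minus strand). The Cdc6 window, which held an E2F match, also lay wholly inside its gene. Sequence upstream of the outermost annotated start of E2f1 and Cdc6 was therefore not searched. Mcm10 held no E2F match, and Ccnb1 and Bub1 held no CHR match. No promoter was matched for Foxm1 or Gins2. Over the 39 genes, the 30 with CCAAT letters had a median log2 fold change of -1.01 and the 9 without of -0.60. For the E2F letters among G1/S genes the medians were -0.97 with (10 genes) and -0.60 without (13 genes), and for the CHR letters among G2/M genes -1.01 with (12 genes) and -1.28 without (4 genes). These medians are descriptions, and their differences were not tested.

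All 11 genes of origin licensing were lower in Day4, with a median log2 fold change of -0.91, and 4 of them were DEGs. Orc1 (chr4:108579423-108614833, plus strand, GRCm38), the largest subunit of the origin recognition complex and the one whose level varies through the cell cycle, changed most of all 50 members. Its normalized counts were 4627 and 4621 in Undiff and 658 and 674 in Day4. The groups were far apart: the Undiff mean was 6.94 times the Day4 mean, a log2 fold change of -2.79 ± 0.06 (standard error, SE), and 10.3% of expressed genes had a lower one. Orc6, another subunit of the complex, had 5656 and 5920 in Undiff and 3550 and 3593 in Day4, a log2 fold change of -0.70 ± 0.05. In the same complex, then, one subunit changed far more than the other: per kilobase of exons, Orc1 stood at 0.433 and 0.413 of Orc6 within the Undiff libraries and at 0.0982 and 0.0993 within the Day4 libraries.

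The loading factor Cdc6 (chr11:98907801-98923940) had normalized counts of 4265 and 4378 in Undiff and 2010 and 2106 in Day4, a log2 fold change of -1.07 ± 0.05. Cdt1, which brings the Mcm ring to origins, had 5125 and 5284 in Undiff and 3247 and 2984 in Day4. Geminin (Gmnn), the protein that binds and blocks Cdt1, had 3663 and 3643 in Undiff and 2171 and 2204 in Day4. Both changed by -0.74, and their ratio per kilobase, 0.760 and 0.788 in Undiff against 0.812 and 0.735 in Day4, overlapped between the states.

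The 6 subunits of the Mcm2-7 ring were lower together, with log2 fold changes from -1.09 to -0.57. Mcm5 (chr8:75109569-75128439) had normalized counts of 24776 and 24898 in Undiff and 11550 and 11817 in Day4, a log2 fold change of -1.09 ± 0.04. Mcm3 (chr1:20802968-20820312) followed at -1.08, and Mcm2, Mcm7, Mcm6 and Mcm4 at -0.95, -0.91, -0.63 and -0.57. This order was that of their Undiff levels per length, except that Mcm7 stood above Mcm2 there, and Mcm4, the lowest in Undiff, changed least. In CPM per kilobase of exons, the highest subunit was 2.16 and 2.07 times the lowest in the Undiff libraries and 1.48 times in both Day4 libraries. Mcm4 stood at 0.613 and 0.655 of the geometric mean of the 6 in Undiff and at 0.781 in both Day4 libraries, while Mcm5 stood at 1.32 and 1.36 in Undiff and at 1.16 and 1.15 in Day4. Reads on the 385 exon bases that Mcm7 shares with the opposite-strand genes Cops6 and Ap4m1 may be missing from its count.

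**Figure D3:**
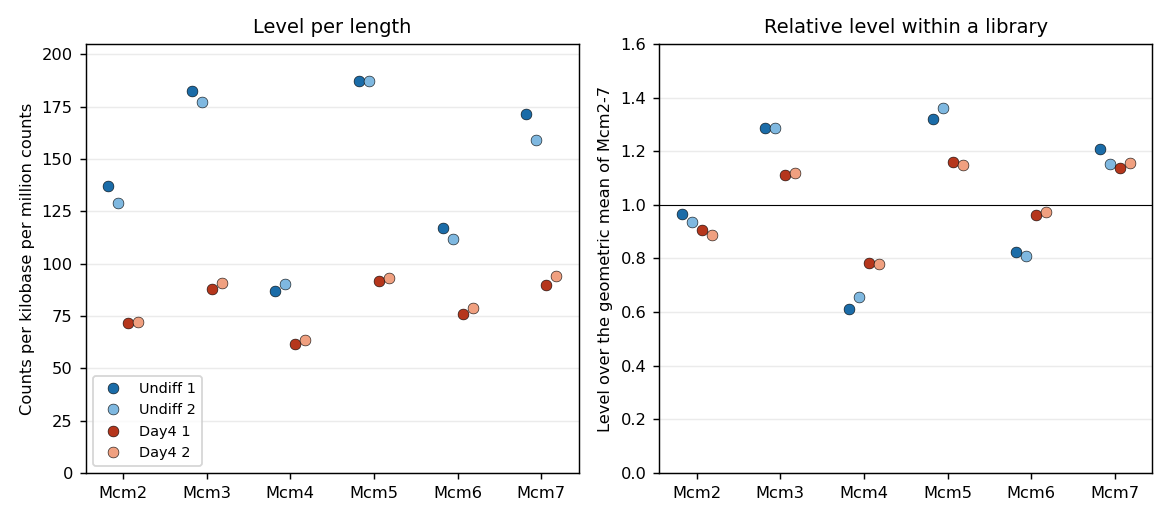
Left, CPM per kilobase of exons of Mcm2 to Mcm7 in each library; right, each value over the geometric mean of the 6 in its library. The 6 levels had a ratio of highest to lowest of 2.16 and 2.07 in Undiff and of 1.48 in both Day4 libraries.

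Of the 4 genes of helicase activation, 3 were lower in Day4. Mcm10 (chr2:4989714-5012791, minus strand), needed to start unwinding at loaded origins, changed second most of the 50. Its normalized counts were 8165 and 8037 in Undiff and 1613 and 1678 in Day4, a log2 fold change of -2.30 ± 0.05. Cdc45, part of the active helicase, had 2276 and 2208 in Undiff and 1537 and 1582 in Day4, a log2 fold change of -0.52 ± 0.06. The ratio of Mcm10 to Cdc45 per kilobase was 1.55 and 1.57 in the Undiff libraries and 0.454 and 0.459 in the Day4 libraries.

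The 2 subunits in the set from GINS, a complex that works with Cdc45, differed. Gins1 had normalized counts of 1587 and 1650 in Undiff and 835 and 871 in Day4, a log2 fold change of -0.92 ± 0.07. Gins2 had 2511 and 2527 in Undiff and 2596 and 2692 in Day4, a log2 fold change of 0.07 ± 0.05 with an adjusted p of 0.23. The direction of Gins2 depended on the scaling: with upper-quartile factors, which shifted the median of all genes by -0.20, it was -0.13, and with library totals it was 0.14, both past the adjusted p of 0.05. The gene lies opposite Gse1, which covers 2758 of its 3900 exon bases. The kit named in the study's methods does not mark strand, and these libraries are not among those the methods count by strand. The labels, however, also name a stranded kit. If counted without strand, reads of Gins2 and Gse1 in these bases cannot be told apart. The counting tool, HTSeq, tallies reads it cannot assign to a single gene as ambiguous and leaves them out of gene counts. Such reads made up 1.84% to 1.91% of the tallies. Whether the annotation used for counting has the same overlap was not checked. In all, 10 members share exon bases with a counted gene on the opposite strand: Gins2, Orc6, Mcm7, Fen1, Rfc4, Tk1, Ccna2, Kif20a, Cdc20 and Ube2c.

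The 5 fork enzymes were all lower, with a median of -0.83. Pole (chr5:110286306-110337474), the catalytic subunit of the leading-strand polymerase epsilon, had normalized counts of 7810 and 7757 in Undiff and 2035 and 2256 in Day4, a log2 fold change of -1.86 ± 0.05. Pola1, the catalytic subunit of the polymerase that makes primers with primase, had 4482 and 4520 in Undiff and 2168 and 2248 in Day4, a log2 fold change of -1.03 ± 0.05. The Pole to Pola1 ratio per kilobase was 1.26 and 1.24 in Undiff and 0.676 and 0.723 in Day4. Pcna, the sliding clamp of the polymerases, changed by -0.83, and was second highest per length of the 50 in Undiff and highest in Day4, at 129 ± 4.58 CPM per kilobase (SD, n = 2). Fen1, the flap nuclease that trims Okazaki fragments, and Rfc4, a subunit of the clamp loader, changed by -0.42 and -0.40. Pcna has 2 annotated pseudogene copies, among which its reads may be split.

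Nucleotide supply changed least of the groups of 3 or more genes, with a median of -0.38, and its members differed widely. Rrm2, the small subunit of ribonucleotide reductase whose level follows the cell cycle, had normalized counts of 14678 and 14552 in Undiff and 6110 and 6406 in Day4, a log2 fold change of -1.22 ± 0.05. Rrm1, the large and more stable subunit, had 13030 and 13107 in Undiff and 11085 and 12051 in Day4, a log2 fold change of -0.18 ± 0.04 with an adjusted p of 1e-04. Without Day4 replicate 1 Rrm1 changed by -0.12 with an adjusted p of 0.0892, which ended the call. Rrm2 stood at 2.05 and 2.02 times Rrm1 per kilobase in Undiff and at 1.0 and 0.969 in Day4.

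Tyms, which makes thymidylate from deoxyuridylate, had normalized counts of 3105 and 3325 in Undiff and 3302 and 3479 in Day4. The states overlapped, and the log2 fold change of 0.08 ± 0.05 had an adjusted p of 0.15. It was -0.13 with upper-quartile factors, was 0.15 with library totals and was 0.13 without Undiff replicate 2, the last with an adjusted p of 0.0172. Each of these 3 fits called it, in opposite directions. The gene has an annotated pseudogene copy. Tk1, which salvages thymidine, had 4225 and 4224 in Undiff and 2860 and 2810 in Day4, a log2 fold change of -0.58 ± 0.05.

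The 3 E2F factors in the set were lower. E2f8, an atypical E2F that represses E2F targets late in S phase, had normalized counts of 2495 and 2894 in Undiff and 897 and 973 in Day4, a log2 fold change of -1.52 ± 0.06. The activators E2f1 and E2f2 changed by -0.60 and -0.68, and E2f2 was the lowest of the 50 genes per length in both states. Cdc25a, the phosphatase that activates Cdk2 at the G1/S border, had 4997 and 5187 in Undiff and 3383 and 3321 in Day4, a log2 fold change of -0.60 ± 0.05. Its G2/M counterpart Cdc25c, which activates Cdk1, had 1205 and 1170 in Undiff and 899 and 887 in Day4, a log2 fold change of -0.41 ± 0.07.

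Among the G2/M genes, Foxm1 (chr6:128362967-128376146), a factor that drives transcription of mitotic genes, was the 1 member called higher. Its normalized counts were 2829 and 2898 in Undiff and 3288 and 3395 in Day4, so the states did not overlap, and its log2 fold change was 0.22 ± 0.05 with an adjusted p of 2.4e-05. With upper-quartile factors it was 0.02 with an adjusted p of 0.736, which ended the call, and in the other fits it was 0.17 to 0.29. The other 21 G2/M genes were all lower.

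The cyclins differed in size of change. Ccnb1 (chr13:100778650-100786570), cyclin B1, the main partner of Cdk1 at mitotic entry, had normalized counts of 17807 and 17523 in Undiff and 5460 and 5520 in Day4. Its log2 fold change of -1.69 ± 0.05 was the lowest of the G2/M genes. Cyclin B2 (Ccnb2) had 6091 and 6046 in Undiff and 3050 and 3116 in Day4, a log2 fold change of -0.98 ± 0.05, just inside the 2-fold limit. Cyclin A2 (Ccna2), which works in S phase and G2, changed by -0.71, and the kinase Cdk1 itself by -0.63. Per kilobase, Ccnb1 was at 1.80 and 1.78 times Ccnb2 in the Undiff libraries and at 1.10 and 1.09 times in Day4, and at 3.06 and 2.96 times Ccna2 in Undiff and 1.57 and 1.49 times in Day4. Ccnb1 and Ccnb2 each have an annotated pseudogene copy.

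The 2 Aurora kinases changed by different amounts. Aurka (chr2:172356190-172370535), the kinase of centrosomes and spindle poles, had normalized counts of 6495 and 5863 in Undiff and 2474 and 2517 in Day4, a log2 fold change of -1.31 ± 0.05. Aurkb, the kinase of the chromosomal passenger complex, had 4688 and 4359 in Undiff and 4015 and 4122 in Day4, a log2 fold change of -0.15 ± 0.05 with an adjusted p of 0.0023. The Aurkb call was lost without Undiff replicate 1 (adjusted p = 0.0552), without Day4 replicate 1 (adjusted p = 0.0736) and with library totals (adjusted p = 0.0886). Birc5, survivin, a partner of Aurkb in the passenger complex, had 7373 and 7697 in Undiff and 3884 and 3919 in Day4, a log2 fold change of -0.95 ± 0.05. The Aurka to Aurkb ratio per kilobase was 1.40 and 1.36 in Undiff and 0.621 and 0.615 in Day4. Plk1, the polo-like kinase of mitotic entry, changed by -0.63.

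The spindle motors and assembly factors were lower by similar amounts. Kif11, the motor that pushes spindle poles apart, had normalized counts of 10172 and 10383 in Undiff and 4839 and 5386 in Day4, and Kif23, a motor of the central spindle needed for cytokinesis, had 7756 and 7350 in Undiff and 3547 and 3939 in Day4. Both changed by -1.01 and sat at the 2-fold limit. Without Day4 replicate 1 they changed by -0.93 and -0.94. Kif20a, another motor of the central spindle, and Tpx2, which activates Aurka on the spindle, changed by -0.70 and -0.69. Cdc23, on the opposite strand, shares 1271 bases of exons with Kif20a.

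The spindle checkpoint and the anaphase-promoting complex (APC/C) formed the group with the lowest median, -1.19 over 6 genes, 5 of them DEGs. Bub1 (chr2:127801122-127831865), a checkpoint kinase at kinetochores, had normalized counts of 10871 and 10022 in Undiff and 3893 and 3934 in Day4, a log2 fold change of -1.42 ± 0.05. Cdc20 (chr4:118432901-118437352), the activator of APC/C that the checkpoint holds back, had 9661 and 9396 in Undiff and 3826 and 3896 in Day4, a log2 fold change of -1.30 ± 0.05. The kinase Ttk, which starts checkpoint signalling, changed by -1.21, and Bub1b and Mad2l1, parts of the inhibitor of Cdc20, by -1.17 and -1.15. In none of these 5 genes did the states overlap. Ube2c, the ubiquitin-conjugating enzyme of APC/C, had 4492 and 5070 in Undiff and 2970 and 3017 in Day4, a log2 fold change of -0.67 ± 0.05.

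Top2a (chr11:98992943-99024189), the topoisomerase that untangles sister chromatids, was the highest member by count and, in Undiff, per length. It had 59456 and 58109 normalized counts in Undiff and 22852 and 24493 in Day4, a log2 fold change of -1.31 ± 0.04. Mki67, the Ki-67 protein that coats mitotic chromosomes and serves as a marker of proliferating cells, had 14816 and 14923 in Undiff and 8620 and 9394 in Day4, a log2 fold change of -0.72 ± 0.04. The proliferation marker thus stood at 1.65 times its Day4 level in Undiff, a smaller change than that of Top2a, 2.48 times.

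Partners within a complex or step were also compared inside each library, where scaling between libraries cannot act. Of 14 such pairs, chosen after their values were seen, 13 had ratios that did not overlap between the states, and Cdt1 over Gmnn was the exception. The widest shifts on the log2 scale, Day4 minus Undiff, were -2.10 for Orc1 over Orc6, -1.78 for Mcm10 over Cdc45, -1.15 for Aurka over Aurkb, -1.05 for Rrm2 over Rrm1 and -0.99 for Gins1 over Gins2. The smallest of the 13 were -0.19 for Cdc25a over Cdc25c and -0.24 for Bub1 over Bub1b. Because the pairs were chosen for their values, these shifts carry no test. The share of all gene pairs without overlap was not computed, so 13 of 14 cannot be read as particular to partners.

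**Figure D4:**
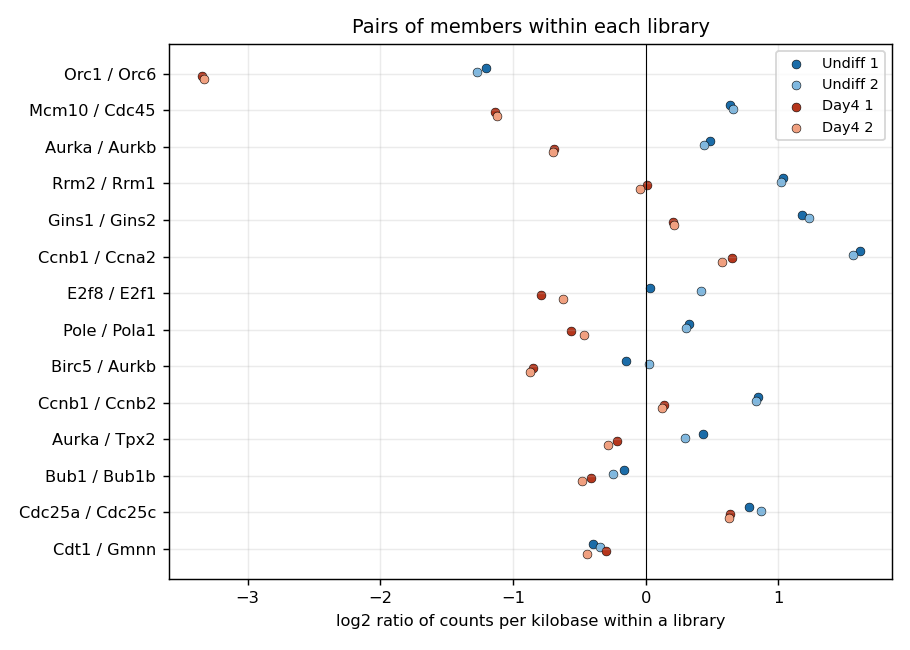
Log2 ratio of counts per kilobase of exons for 14 pairs of genes within each library, 2 Undiff (blue) and 2 Day4 (red), ordered by shift. Orc1 over Orc6 moved most, by -2.10, and Cdt1 over Gmnn overlapped between the states.

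The balance between the phases moved little. The log2 ratio of summed CPM of the 22 G2/M genes over the 28 G1/S genes was 0.01 and -0.01 in Undiff and -0.18 and -0.15 in Day4, a difference of -0.16. The shift depended on Top2a: without it, an alternative chosen after the values were seen, the difference was -0.076. With every gene given equal weight, as the mean log2 CPM of each phase, the difference was -0.0060 and the libraries of the states overlapped.

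Genes of the same pathways outside the set were read from lists chosen by function. Of 45 other replication genes, 40 were lower and 3 higher at an adjusted p of at most 0.05, with a median log2 fold change of -0.85, and 14 were DEGs lower in Day4 and 1 higher. The lowest were Rfc5, a clamp loader subunit (-1.91), Dbf4, the activator of the Cdc7 kinase that fires origins (-1.85), and Recql4, a helicase of origin firing (-1.60). The DEG that rose was Pole3, a small histone-fold subunit of polymerase epsilon, with normalized counts of 832 and 815 in Undiff and 1741 and 1732 in Day4 (log2 fold change 1.08), opposite to the catalytic subunit Pole.

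Of 57 other mitosis genes, 49 were lower and 3 higher at an adjusted p of at most 0.05, with a median of -0.88, and 23 were DEGs lower in Day4 and 1 higher. The lowest were Anln, anillin of the cleavage furrow (-2.20), Hmmr, a spindle protein (-2.19), and Espl1, separase, which cuts sister chromatids apart (-1.98). The DEG that rose was Zwint, a kinetochore protein, with normalized counts of 5079 and 5155 in Undiff and 10430 and 10733 in Day4 (log2 fold change 1.05). Pole3 and Zwint lay near the 2-fold limit and fell below it with upper-quartile factors, as Zwint did without Day4 replicate 2.

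The regulators of the cell cycle moved in both directions. Of 16 E2F, RB and DREAM regulators, 7 were lower and 5 higher at an adjusted p of at most 0.05, with a median of -0.08. Over all expressed genes, 42.8% were lower and 44.6% higher by this rule, so these counts are near the background. As DEGs, 1 was lower, Mybl2, a MYB factor that works with the MuvB complex on G2/M genes (-4.00, from a mean of 18397 to 1152 normalized counts), and 2 were higher, the pocket protein Rbl2 (1.70) and the repressor E2f6 (1.44). With upper-quartile factors 2 were lower and 2 higher. Mybl2 changed more than any of the 50 members, while Foxm1, its partner factor on G2/M genes, was slightly higher.

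Of 15 G1 cyclins, their kinases and CDK inhibitors, 3 were DEGs lower in Day4 and 8 higher, with a median of 1.03, beside 24.9% and 26.8% of all expressed genes. With upper-quartile factors 3 were lower and 5 higher. The lower ones were cyclin E1 (Ccne1, -2.85), the partner of Cdk2 at S-phase entry, cyclin D1 (Ccnd1, -1.84) and Cdk6 (-1.50). The largest gains were those of the CDK inhibitors Cdkn1c, p57 (4.31, from a mean of 600.5 to 11970.3 normalized counts), and Cdkn2c, p18 (3.85), and of cyclin D2 (Ccnd2, 2.91).

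A list of 10 housekeeping genes, which serve metabolism and structure, was also shifted. At an adjusted p of at most 0.05, 6 were lower and 2 higher, beside 42.8% and 44.6% of all expressed genes. The median was -0.52, and 1 was a DEG lower in Day4, the purine salvage gene Hprt (-2.47), named after its value was seen. The part of a shift shared with such strongly expressed genes in the members' change was not tested. Relative to the median of all expressed genes, the members' median was -0.82, and over the 11 fits it stayed between -0.86 and -0.80. A change of scaling alone shifts both medians alike, so it could hardly move this difference.

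**Figure D5:**
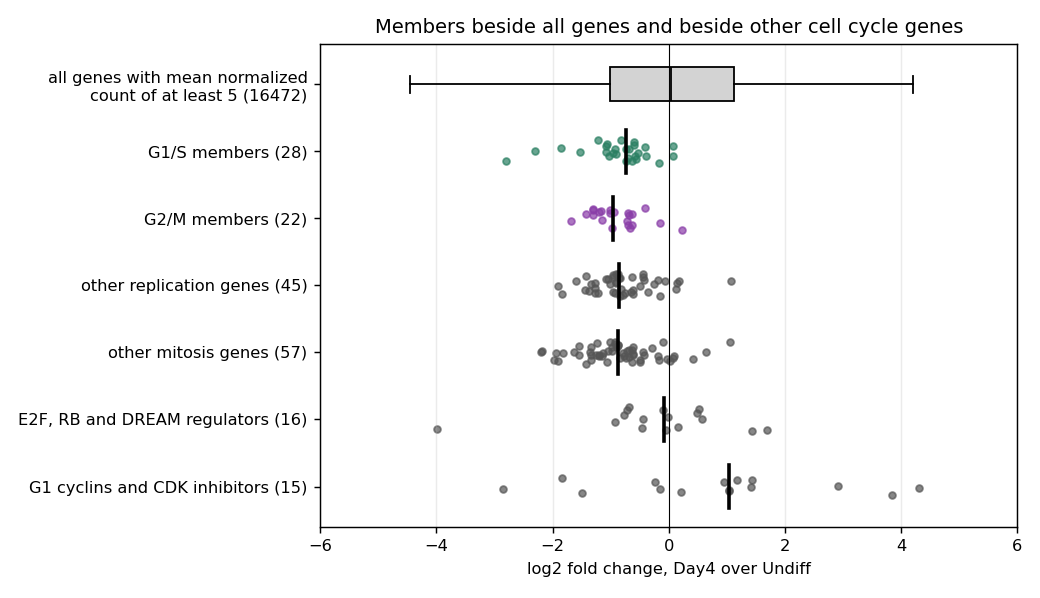
Log2 fold change, Day4 over Undiff, of all 16472 expressed genes (box from the 25th to the 75th percentile, whiskers from the 5th to the 95th), of the 28 G1/S and 22 G2/M genes and of 4 other lists of cell cycle genes, each point 1 gene and each bar the median. Replication and mitosis lists lay between -0.74 and -0.96 at the median, beside 0.03 for all genes and 1.03 for the G1 cyclins and CDK inhibitors.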

How the data were processed

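The 4 libraries, 2 per state, were analysed. The deposited values are raw counts per gene, which the authors made with HTSeq after adaptor trimming (cutadapt) and STAR 2.4.2a alignment, build mm10. The study's methods name the TruSeq RNA v2 kit, which does not mark strand, and count only another platform's reads by strand. The labels also name a stranded kit. From the counts, edgeR 4.0.16 (R 4.3.3) fitted Day4 against Undiff with trimmed mean of M-values factors over 19891 genes, without a low-count filter. CPM are counts per 1000000 counts on genes. A normalized count is a count divided by its library's effective size and multiplied by the geometric mean of these. DESeq2 1.42.0, other scalings, a low-count filter, a replicate block and leaving out each library were alternatives. Exon lengths and positions came from GENCODE vM21 (GRCm38). By the study's methods, reads were counted with a UCSC annotation of mm10, so these lengths may not match the counted exons. A length that does not match moves a gene's level per kilobase by the same factor in every library. Ranks per length depend on it, whereas the shift of a ratio between states does not. The script was tested on simulated data with 200 changed genes. These data had 4102 DEGs lower and 4416 higher, so that test does not cover scaling under so many changes. All 50 members, and in the other lists the 3 highest and 3 lowest DEGs, are named. In those lists 3 symbols were matched through RefSeq synonyms. The members, lists and tests were chosen with earlier results of these data known. Rows that name no gene (9.41% to 15.1% of the tallies) were left out.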

Additional observations from a re-analysis of the deposited data

How the results depend on the processing

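With 47, 46, 49, 47 and 47 members lower at an adjusted p of at most 0.05 under DESeq2's size factors, library totals, upper-quartile factors, DESeq2 and a low-count filter, and 45 to 47 without 1 library, the count was close to 47 in every fit. DEGs lower in Day4 numbered 20, 16, 25, 20 and 20 in the same order, and 17 to 20 without 1 library. Members higher numbered 3 with library totals and 0 with upper-quartile factors (edgeR), where Foxm1, at 0.02 with an adjusted p of 0.736, was the 1 member above 0. The members' median was -0.72 with library totals and -0.99 with upper-quartile factors, and -0.86 to -0.79 without 1 library. The G1/S median was -0.78, -0.67, -0.94, -0.78 and -0.77 in the order above (-0.79 to -0.73 without 1 library), and the G2/M median -1.0, -0.90, -1.17, -1.0 and -0.99 (-1.0 to -0.94). Relative to all expressed genes the median was -0.86 to -0.80 without 1 library. Reversed with upper-quartile factors were Gins2 (-0.13) and Tyms (-0.13). That scaling also gave 26 other replication genes and 2 E2F, RB and DREAM regulators as DEGs lower in Day4, and 0 other replication genes, 0 other mitosis genes and 5 G1 cyclins and CDK inhibitors as DEGs higher. Without 1 library, 0 to 1 other mitosis genes were DEGs higher, and 1 to 2 members were higher at an adjusted p of at most 0.05. The shift of the G2/M over G1/S ratio was -0.0060 as a mean of log2 CPM, -0.076 without Top2a, and -0.18 to -0.15 without 1 library. The causes of these differences were not tested. With the replicate number as a block, 19 members were DEGs and 47 lower. Deviations of same-numbered libraries correlated at -0.01 over all expressed genes. Counting noise enters that value too, so it cannot show whether same-numbered libraries shared a culture run. With 2 libraries per state, a fit without 1 of them assumes that the lone library varies like the other state. Depth did not limit the members, whose lowest mean normalized count was 690.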
